A study of Mus musculus with 24 samples.

Results

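The genes described here encode mouse proteins that recognize methylated CpGs, or belong to the families that do, and were chosen by name: Mbd1, Mbd2 and Mbd3 of the methyl-CpG binding domain family, Zbtb33 (which encodes KAISO), Zbtb4 and Zbtb38 of the BTB zinc finger family, and the KRAB zinc finger gene Zfp57. All 7 were found among the 51912 genes of the count tables. Their RNA was measured by RNA-Seq in 9 libraries, 3 each of embryonic stem cells (ESCs), neuronal progenitors (NPs) and TET TKO ESCs. ESCs (wild type, strain C57BL/6 X 129S5) grew in medium with LIF. NPs were derived from ESCs of the same strain and genotype, by aggregation in suspension and addition of retinoic acid. TET TKO ESCs (strain C57BL/6 X 129/sv) carry a triple knockout of Tet1, Tet2 and Tet3, the enzymes that oxidize methylated cytosine. Whether replicates were separate cultures is not said in the labels, so p-values measure the spread between these libraries. One fragment of the Hi-TransMet methylation assay carries a KAISO motif and is described at the end.

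DNA methylation is read by several kinds of protein. In MBD proteins a compact domain contacts the symmetric methylated CpG. MBD2 and MBD3 are alternative subunits of the NuRD remodelling and histone deacetylase complex, and mammalian MBD3 binds methylated CpG only weakly. MBD1 works with histone H3K9 methyltransferases. KAISO, ZBTB4 and ZBTB38 recognize methylated sites through zinc fingers and recruit corepressors through other domains. ZFP57 binds methylated TGCCGC at imprinting control regions and recruits KAP1 (TRIM28), which maintains imprinted methylation in ESCs and early embryos.

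Promoters, taken from RefSeq (GRCm38.p6) as the 300 bases from 250 before to 50 after a transcript start, were matched for 5 of the 7 genes at 9 start sites. Shown are promoters of the gene that fell most in NPs (Zfp57, most upstream start), the gene that rose most (Zbtb4) and the gene highest in NPs (Mbd3). The first holds fewer CpGs than the other 2, and genes with more CpGs than these are not shown. CpGs are in capitals. They are at chr17:37000913-37001212 on the plus strand, chr11:69765662-69765961 on the plus strand and chr10:80399482-80399781 on the minus strand, each 5′ to 3′.
Zfp57: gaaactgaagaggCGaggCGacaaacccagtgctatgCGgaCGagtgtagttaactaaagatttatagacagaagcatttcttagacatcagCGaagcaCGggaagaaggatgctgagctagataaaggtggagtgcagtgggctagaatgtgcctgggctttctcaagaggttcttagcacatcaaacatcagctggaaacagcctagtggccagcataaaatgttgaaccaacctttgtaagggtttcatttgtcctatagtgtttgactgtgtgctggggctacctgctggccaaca
Zbtb4: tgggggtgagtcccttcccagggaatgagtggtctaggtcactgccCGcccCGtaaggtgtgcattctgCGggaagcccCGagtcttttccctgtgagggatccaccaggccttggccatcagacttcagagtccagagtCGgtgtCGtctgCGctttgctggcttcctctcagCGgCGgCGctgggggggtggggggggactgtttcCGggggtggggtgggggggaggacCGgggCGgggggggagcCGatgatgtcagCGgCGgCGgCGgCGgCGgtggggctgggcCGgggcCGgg
Mbd3: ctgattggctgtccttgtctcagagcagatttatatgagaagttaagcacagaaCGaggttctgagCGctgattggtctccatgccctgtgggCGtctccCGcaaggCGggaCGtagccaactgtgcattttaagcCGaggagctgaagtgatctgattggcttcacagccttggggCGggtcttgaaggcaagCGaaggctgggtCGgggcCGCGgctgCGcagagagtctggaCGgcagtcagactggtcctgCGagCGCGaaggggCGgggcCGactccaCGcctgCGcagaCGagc

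The Zfp57 window held 6 CpGs, all upstream of the start, and the other Zfp57 starts held 9 and 4. These numbers lay at percentiles 43.6, 54.2 and 31.4 of all 32851 promoters, whose median was 7 CpGs. Zbtb4 and Mbd3 had 22 CpGs each (percentile 76.9), and Zbtb33 had 34 (percentile 92.3). The 3 starts of Zbtb38 differed from each other, with 8, 41 and 25 CpGs (percentiles 51.4, 96.5 and 81.6). The letters TGCCGC, searched on both strands, were present in 11.6% of all promoters and matched once in Zbtb33 and once at the second Zbtb38 start. The KAISO core TCCTGCNA, also searched on both strands, was present in 4.96% of promoters and matched once, in Mbd3. Such matches describe the letters only.

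**Figure D1:**
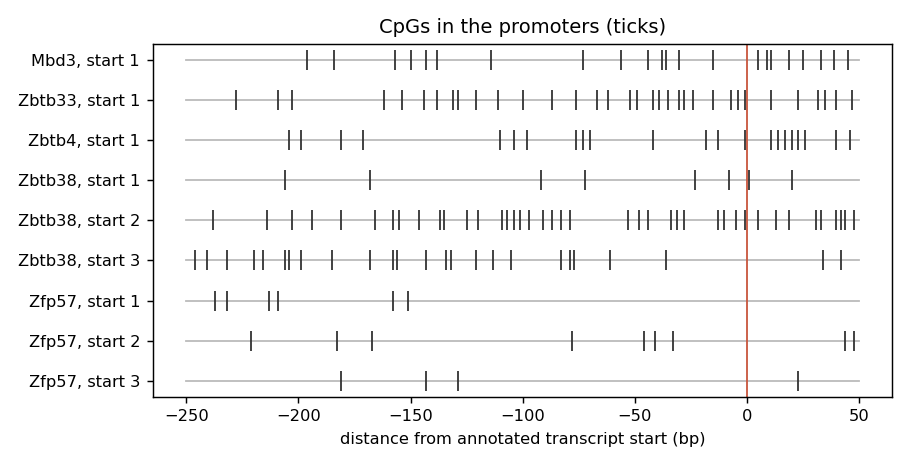
CpGs (ticks) in the promoters of 5 genes by distance from the annotated transcript start (red line, bp), with 1 row per start site, numbered from the most upstream. Zfp57 starts hold 4 to 9 CpGs, and the second Zbtb38 start holds 41.

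Libraries of ESCs held 20570050 to 23976914 counts, those of NPs 20519702 to 22132988 and those of TET TKO ESCs 80704741 to 93210102. Levels are given as RPKM (reads per kilobase of exon, per library size scaled by TMM), which makes genes comparable per length. All 5 ESC markers fell and all 5 NP markers rose in NPs, where 4 of 5 neuron, 3 of 3 tested endoderm and 3 of 4 trophoblast markers rose as well. The summed RPKM of the endoderm markers was 0.385 to 0.892 in ESCs and 17.5 to 19.3 in NPs, with Afp at 0 in some library, and that of the neuron markers was 68.5 to 71.0 in ESCs and 68.9 to 171.0 in NPs, with Dcx at 0 in some ESC library. Trophoblast markers summed to 25.2 to 27.9 RPKM in ESCs, 79.8 to 176.0 in TET TKO ESCs and 114.0 to 129.0 in NPs. Krt8 made up most of that sum in NPs (112 ± 8.04 RPKM, SD, n = 3), and Tfap2c fell there (log2 fold change -3.72). Tubb3, the neuron marker not called in NPs, made up most of the neuron sum in ESCs (68.1 ± 1.01 RPKM). In bulk RNA, fewer cells of a type and less RNA per cell cannot be told apart, and the part of such cells in the results was not tested. Tet1 had 65.1 ± 3.92 RPKM in ESCs and 13.5 ± 2.38 in TET TKO ESCs (SD, n = 3), and Tet2 19.0 ± 2.47 and 2.48 ± 0.197, so both fell and neither was at 0. Tet3 was low in both, at 0.715 ± 0.0744 and 0.551 ± 0.0724 RPKM. Xist was at most 0.317 RPKM on average in any group and Y-linked genes were expressed in all 3 groups.

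In mouse build GRCm38, Mbd1 (ENSMUSG00000024561) lies on chromosome 18 at 74268272-74282685 and Mbd2 (ENSMUSG00000024513) on the same chromosome at 70568189-70626131, both on the plus strand. Mbd3 (ENSMUSG00000035478) lies on the minus strand of chromosome 10 at 80392539-80399550. Zbtb33 (ENSMUSG00000048047) is X-linked, at 38189793-38197046 on the plus strand. Zbtb4 (ENSMUSG00000018750) occupies chromosome 11 at 69765912-69784023 on the plus strand, Zbtb38 (ENSMUSG00000040433) chromosome 9 at 96682770-96752831 on the minus strand and Zfp57 (ENSMUSG00000036036) chromosome 17 at 37001163-37010635 on the plus strand. Of the exonic bases of Zbtb33, 474 (9.3%) are shared with Tmem255a on the opposite strand. The reads were counted without strand, and Tmem255a had 1 to 3 counts in ESCs, 2 or 3 in TET TKO ESCs and 25 to 102 in NPs. No exonic base of the other 6 genes is shared with another gene.

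In ESCs the levels of the 7 genes spanned a wide range, with Zfp57 and Mbd3 far above the others. Zfp57 averaged 161 ± 23.6 RPKM (SD, n = 3; percentile 99.7 of all genes) and Mbd3 86.5 ± 5.38 (percentile 99.1). Mbd1 came next, 19-fold below Zfp57. Zbtb33 and Mbd2 followed with ranges that overlapped, so these neighbours did not differ beyond their spread. Zbtb38 and, lowest, Zbtb4 (472-fold below Zfp57) closed the order.

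In NPs Mbd3 took the first place with 116 ± 18.2 RPKM, 9.53-fold above Mbd2. The levels of Mbd2, Zfp57 and Mbd1 stood close together, with overlapping ranges, then came Zbtb33, Zbtb4 and Zbtb38, each apart from the next. Of the summed RPKM of the 7 genes, Zfp57 made up 57.3% to 61.4% in ESC libraries and 6.06% to 9.71% in NP libraries. The share of Mbd3 was 31.0% to 34.3% in ESCs and 66.1% to 74.7% in NPs. TET TKO ESCs had the order of ESCs except that Mbd2 stood above Zbtb33, and there the ranges of Zfp57 and Mbd3 overlapped.

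**Figure D2:**
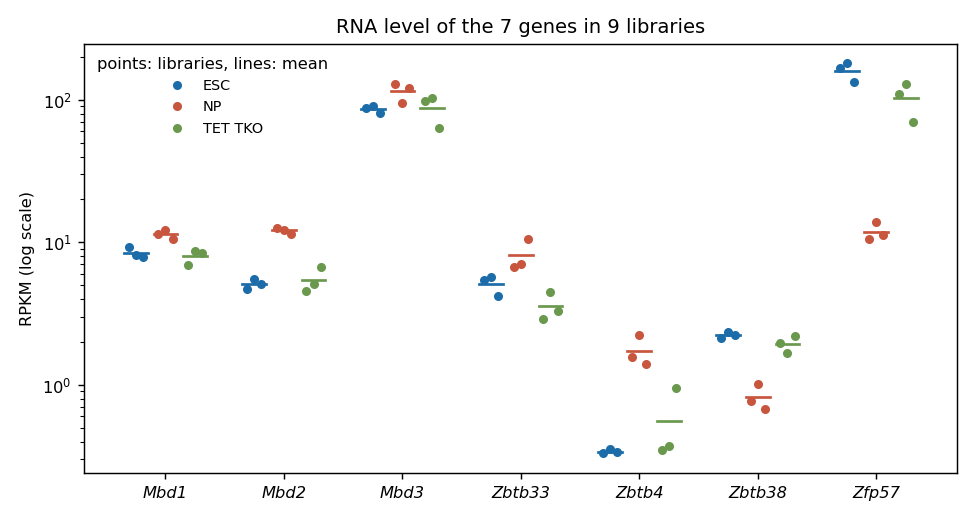
RPKM (log axis) of the 7 genes in the 9 libraries, with a point for each library and a line at the mean of each group. Zfp57 lies at 134 to 180 in ESCs and at 10.5 to 14 in NPs, and Zbtb4 is lowest in ESCs.

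How these genes changed with differentiation was asked by comparing NPs with ESCs. Zfp57 fell 13.6-fold and Zbtb38 2.74-fold, and Zbtb4 rose 5.06-fold and Mbd2 2.37-fold. Zbtb33, Mbd1 and Mbd3 rose by smaller amounts, 1.58-, 1.35- and 1.34-fold. All 7 passed an adjusted p of 0.05 in edgeR's quasi-likelihood test with Benjamini-Hochberg adjustment over all 15197 genes tested, against a background of 64.1%. Of the 7, 5 rose and 2 fell, where 32.9% of all genes tested rose and 31.2% fell. Under the stricter limits of the study, an adjusted p below 0.001 and at least 3-fold, Zbtb4 rose and Zfp57 fell, against a background of 22.4% (12.4% higher and 9.98% lower). The median log2 fold change of the 7 genes was 0.43 and that of all genes tested 0.04.

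Among the methyl-CpG binding domain genes, Mbd2 changed most. Its RPKM was 4.69, 5.51 and 5.1 in the ESC libraries and 12.7, 12.3 and 11.4 in the NP libraries. Every NP library was thus above every ESC library, with a log2 fold change of 1.25 (SE 0.136, edgeR adjusted p = 8.1e-05).

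Mbd1, whose product also binds unmethylated CpG through a CXXC domain, had 9.31, 8.17 and 7.91 RPKM in ESCs and 11.5, 12.2 and 10.6 in NPs. The ranges did not overlap, but the difference was small, 0.43 on the log2 scale (SE 0.14, edgeR adjusted p = 0.0255), and the call was lost without ESC replicate 2 (adjusted p = 0.104), ESC replicate 3 (0.079) or NP replicate 2 (0.0618) and without the filter on low counts (0.0693).

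Mbd3 stood at 88.2, 90.8 and 80.4 RPKM in ESCs and at 130, 95 and 122 in NPs. NP replicate 2 came close to the ESC libraries. Its log2 fold change was 0.42 (SE 0.142, edgeR adjusted p = 0.0296). That call was lost with all 3 groups in the fit (adjusted p = 0.0717) and without any 1 of the ESC replicates (0.0659 to 0.1) or NP replicate 3 (0.0637).

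The BTB zinc finger genes moved in different directions. Zbtb4, which rested on 57 to 67 counts in ESCs, had 0.33, 0.355 and 0.336 RPKM there and 1.56, 2.24 and 1.39 in NPs. Even in NPs it stayed below 3 RPKM, and the log2 fold change was 2.34 (SE 0.243, edgeR adjusted p = 6.2e-05).

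Zbtb38 went the opposite way, from 2.14, 2.36 and 2.24 RPKM in ESCs to 0.772, 1.02 and 0.673 in NPs. The groups were well apart, and the log2 fold change was -1.45 (SE 0.187, edgeR adjusted p = 0.0002).

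For Zbtb33, the gene of KAISO, the ESC libraries gave 5.46, 5.74 and 4.18 RPKM and the NP libraries 6.67, 7.01 and 10.6. NP replicate 3 was the highest, well above the others. The log2 fold change of 0.66 (SE 0.222, edgeR adjusted p = 0.0286) was 0.42 without that library, and then not called (adjusted p = 0.0732). Leaving out ESC replicate 1 or ESC replicate 3 also ended the call (adjusted p = 0.0587 and 0.0984).

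Zfp57 showed the strongest change of the 7 genes. It had 167, 180 and 134 RPKM in ESCs and 10.5, 14 and 11.2 in NPs. Even the lowest ESC library was far above the highest NP library, with a log2 fold change of -3.76 (SE 0.166, edgeR adjusted p = 9.08e-07).

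The scaling of libraries moved the median log2 fold change of all genes from 0.04 under TMM to 0.12 with library sizes alone. Relative to that median, Mbd3 was 0.38 higher under TMM and 0.37 higher with library sizes alone, and all 7 genes kept their direction and their call under both and in DESeq2.

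**Figure D3:**
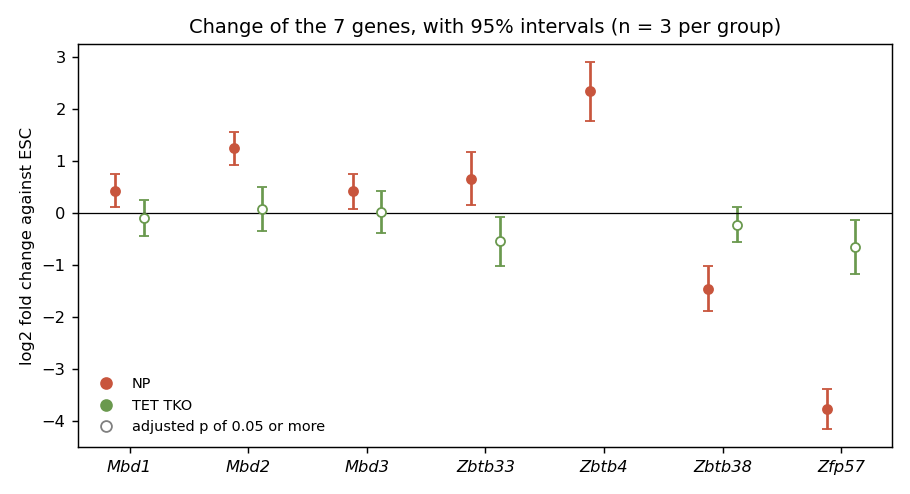
log2 fold change of each gene against ESCs with its 95% interval (n = 3 libraries per group), for NPs (red) and TET TKO ESCs (green). Open points did not pass an adjusted p of 0.05. Values run from -3.76 (Zfp57) to 2.34 (Zbtb4) for NPs, and for TET TKO ESCs all lie between -0.65 and 0.08 (Zbtb4 was not tested there).

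Whether loss of the TET enzymes went with changes in these genes was asked by comparing TET TKO ESCs with ESCs. The strain label differs together with the genotype, so their parts cannot be told apart. Sequencing depth differs with the genotype too, and fits with the TET TKO counts thinned to the depth of ESCs are given below. Of 5 ESC markers, 3 were lower in TET TKO ESCs and 0 higher, namely Zfp42 (log2 fold change -2.6), Klf4 (-0.95) and Esrrb (-0.61). The 5 markers summed to 674 to 813 RPKM there and to 1190 to 1230 in ESCs. Both NP markers tested, Nes (1.44) and Sox1 (1.49), were higher. The part of this marker shift in the results was not tested. None of the 6 genes tested was called by edgeR at an adjusted p of 0.05, against a background of 35.5% of 13939 genes (22.8% higher and 12.7% lower), and 0 passed the stricter limits, against 2.31% (1.1% higher and 1.21% lower). At an unadjusted p below 0.05, 2 of the 6 were lower, Zfp57 and Zbtb33, where the background was 46.5%. DESeq2 called both of them lower. Zbtb4 was below the filter of 1 RPKM.

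Zfp57 had 110, 130 and 69.6 RPKM in TET TKO ESCs, and its ESC range began at 134. All 3 TET TKO libraries were therefore below the ESC libraries, with replicate 3 lowest. The log2 fold change was -0.65 (95% interval -1.16 to -0.13), with an edgeR adjusted p of 0.0542 and a DESeq2 adjusted p of 0.00528. Fits with library sizes alone, without a filter on low counts, with all 3 groups, with the TET TKO counts thinned to the depth of ESCs or without TET TKO replicate 2 also gave an adjusted p below 0.05, from 0.0057 to 0.0463. The adjusted p stayed above 0.05 without TET TKO replicate 1 (0.0949) or any 1 of the ESC replicates (0.0658 to 0.158), and without TET TKO replicate 3 the log2 fold change shrank to -0.43 (edgeR adjusted p = 0.0526).

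Zbtb33 stood at 2.9, 4.47 and 3.27 RPKM in TET TKO ESCs, where replicate 2 lay within the ESC range. Its log2 fold change of -0.54 (95% interval -1.01 to -0.07) had an adjusted p of 0.0725 in edgeR and 0.0137 in DESeq2. It passed as well with library sizes alone (0.0284) and without TET TKO replicate 2 (0.0208), but not without any other library (0.0583 to 0.22). With the TET TKO counts thinned to the depth of ESCs, Zbtb33 had -0.6 (edgeR adjusted p = 0.0571).

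The median gene was 0.12 higher in TET TKO ESCs under TMM, 0.05 lower with library sizes alone and 0.01 higher in DESeq2, on the log2 scale. Genes called numbered 3183 higher and 1770 lower under TMM, but 2127 higher and 2669 lower with library sizes alone and 2814 and 2620 in DESeq2. Relative to the median of all genes, Zfp57 was at -0.77, -0.77 and -0.78 under these 3 scalings and Zbtb33 at -0.67, -0.66 and -0.67.

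The other members gave no call under any of these scalings. Mbd1 had 6.96, 8.73 and 8.35 RPKM in TET TKO ESCs, with a log2 fold change of -0.09 (95% interval -0.43 to 0.25). Mbd2 had 4.52, 5.11 and 6.66 RPKM there and a log2 fold change of 0.08 (95% interval -0.34 to 0.51). For Mbd3 the values were 98.6, 103 and 63.4 RPKM and 0.02 (95% interval -0.39 to 0.43). The ranges of these genes overlapped those in ESCs. Relative to the median of all genes, Mbd2 was at -0.04, -0.03 and -0.04 under TMM, library sizes alone and DESeq2, and Mbd3 at -0.1, -0.1 and -0.11.

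Zbtb38 had 1.97, 1.66 and 2.2 RPKM in TET TKO ESCs, slightly overlapping ESCs, with a log2 fold change of -0.22 (95% interval -0.56 to 0.12). Zbtb4 had 0.35, 0.374 and 0.956 RPKM, of which the first lay within the ESC range and the third stood apart. Tested without the filter, Zbtb4 had a log2 fold change of 0.71 and an edgeR adjusted p of 0.201. TET TKO replicate 3 had the lowest RPKM of Mbd3 and Zfp57 and the highest of Mbd2, Zbtb4 and Zbtb38 in its group, and its mean distance to the other libraries of its group (0.496 on the log2 scale) was the largest of the 9 libraries, which ranged from 0.212.

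The products of these genes act in complexes, and RNA of the partners was read in the same fits, from lists chosen by known function. Of 13 NuRD subunit genes, which join MBD2 or MBD3, 4 rose and 5 fell in NPs (backgrounds 32.9% and 31.2%). Their median log2 fold change was 0.08. The remodelling ATPase genes went opposite ways. Chd3 rose from 5.34 ± 1.14 to 38.4 ± 6.23 RPKM (log2 fold change 2.84, edgeR adjusted p = 6.22e-06). Chd5 fell from 3.45 ± 0.358 to 0.214 ± 0.0568 RPKM (-4.01, edgeR adjusted p = 3.04e-06). The third ATPase gene, Chd4, had 127 ± 0.616 and 145 ± 41.8 RPKM and was not called. Among the MTA subunits, Mta3 fell (log2 fold change -1.52) and Mta1 rose (1.26). Compared with ESCs, 7 of the 13 were higher in TET TKO ESCs and 2 lower, with a median of 0.5 beside 0.12 for all genes and backgrounds of 22.8% higher and 12.7% lower. Mta1 (0.85), Gatad2a (0.80) and Hdac1 (0.80) had the largest log2 differences among those called, and Chd5 was lower (-0.68). With library sizes alone 5 of the 13 were higher and 2 lower, and in DESeq2 6 and 2.

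Of 7 other genes with an MBD-like fold, 2 rose and 4 fell in NPs (backgrounds 32.9% and 31.2%), with a median log2 fold change of -0.59. Baz2a, a subunit of a nucleolar remodelling complex, fell from 76.9 ± 3.09 to 22.1 ± 3.07 RPKM (-1.80, edgeR adjusted p = 8.26e-06). The H3K9 methyltransferase genes Setdb2 (-1.14) and Setdb1 (-0.95) and the glycosylase gene Mbd4 (-0.59) fell as well. None of the 7 was called by edgeR in TET TKO ESCs and 0 had an unadjusted p below 0.05, but DESeq2 and edgeR with library sizes alone each called 4 lower.

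Of 8 genes for MBD1 partners and heterochromatin proteins, 2 rose and 2 fell in NPs (backgrounds 32.9% and 31.2%), with a median of -0.03. Suv39h1, an H3K9 methyltransferase gene, rose from 3.54 ± 0.488 to 17.7 ± 0.716 RPKM (log2 fold change 2.32, edgeR adjusted p = 4.01e-06). Atf7ip2 fell from 4.82 ± 0.741 to 0.592 ± 0.202 RPKM (-3.02, edgeR adjusted p = 4.42e-05), and its relative Atf7ip, which stabilizes SETDB1, also fell (-0.50). Cbx3, which encodes an HP1 protein, rose in NPs (0.71), with 3.9, 2.33 and 2.15 RPKM there. The edgeR adjusted p was 0.0395 for Cbx3 and 0.0213 for Atf7ip. Without any 1 of the ESC replicates, the list gave 1 gene higher and 1 lower in NPs. Higher in TET TKO ESCs were 3 genes (0 lower), among them Cbx3 (1.40) and Suv39h1 (0.70), so that 3 of 8 were called against a background of 35.5%. With library sizes alone that list gave 2 higher and 3 lower, and in DESeq2 3 and 3.

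In the pathway of ZFP57, 3 of 5 genes fell and 0 rose in NPs, where 64.1% of all genes tested were called (31.2% lower and 32.9% higher). Trim28, the gene of KAP1, fell from 835 ± 34.0 to 276 ± 18.1 RPKM in NPs (log2 fold change -1.60, edgeR adjusted p = 7.22e-06). Uhrf1, which guides the maintenance methyltransferase to hemimethylated DNA, fell too (-1.03), as did Setdb1, which is also in the list of genes with an MBD-like fold. Dnmt1 and Zfp445, the second known imprint-protecting zinc finger gene, were not called. The median of the list was -0.95 beside 0.04 for all genes. In TET TKO ESCs Trim28 (-0.54) and Zfp445 (-0.57) were lower and 0 genes of the list were higher (2 of 5 called, background 35.5%), but 0 were called without ESC replicate 1 and 1 each without ESC replicate 2, ESC replicate 3 or TET TKO replicate 1.

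Of 7 genes for KAISO corepressors and its binding partner p120 catenin (Ctnnd1), 3 rose and 2 fell in NPs, with a median of 0.19. Gps2 rose from 15.5 ± 3.4 to 34.3 ± 5.03 RPKM (log2 fold change 1.15), and Tbl1x rose by 0.60. The paralogous Tbl1xr1 fell (-0.94), and so did the corepressor gene Ncor1 (-0.71). Shares of these lists called in NPs are to be read beside the background of 64.1%. For TET TKO ESCs edgeR called 0 of the 7 (2 at an unadjusted p below 0.05), and DESeq2 called 1.

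**Figure D4:**
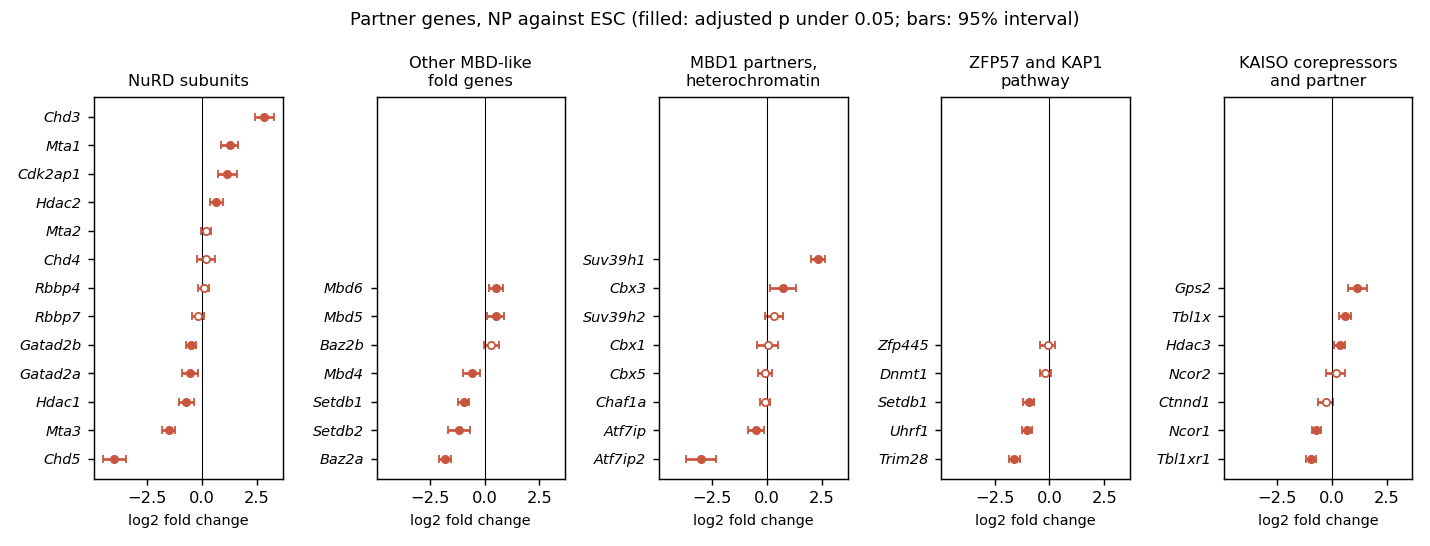
log2 fold change (NPs against ESCs) of the partner genes in 5 lists, with 95% intervals, filled where the adjusted p was below 0.05. Values run from -4.01 (Chd5) to 2.84 (Chd3). In the ZFP57 and KAP1 list 3 of 5 genes were called, all lower, where 64.1% of all genes tested were called.

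The genes whose RNA followed each member most closely were taken as the pair with the highest Pearson r of log2(1 + RPKM) over the 9 libraries, among 12932 genes with a mean of at least 1 RPKM. The points fall into 3 groups, so r mostly reflects the group means, and no test was made. Zfp57 was most like Nodal, a TGF-beta family ligand (r = 0.998), which had 66.8 RPKM in ESCs, 31.5 in TET TKO ESCs and 0.731 in NPs, and like Platr12, a noncoding transcript (0.997). Zbtb38 was most like the kinase gene Syk (0.995) and Gpa33 (0.994), and Mbd2 like Atraid (0.992) and the glycosyltransferase gene Mgat5 (0.989). Zbtb33 was most like A630052C17Rik (0.995) and Ift80 (0.986), Mbd3 like Mlxip (0.975) and Crmp1 (0.955), and Mbd1 like Mir1957a (0.97) and Mpped2 (0.953). Zbtb4 was not among the genes compared.

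For KAISO, the product of Zbtb33, the methylation of its motif was measured as well. In Hi-TransMet a bacterial fragment, FR1, carries either a motif (WT) or its scrambled form (Sc) and is inserted at the β-globin locus, unmethylated (−SssI) or after methylation with M.SssI (+SssI). Reads were summed over the runs of each of 5 pools, and Δmet is the WT minus the Sc percentage, averaged over 25 CpGs. The study deduplicated Hi-TransMet reads by UMI. The pools of ESCs under −SssI and NPs under +SssI also take in a sample labelled as Sanger sequencing, whose runs are not identified. The study pooled biological and technical replicates, and the labels do not say which runs are which, so runs were not treated as replicates. Reads of a fragment need not come from separate integration events, and intervals and Fisher tests cover counting error only.

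Under −SssI in ESCs, FR1 with the KAISO motif was more methylated than with the scrambled motif. Methylation averaged 77.0% at WT and 40.9% at Sc, which gives a Δmet of 36.0 points (95% interval as for 1 CpG ± 13.4). By Fisher's exact test with adjustment over the CpGs of all 30 pairs, 21 of 25 CpGs were higher and 0 lower at WT, against backgrounds of 29.8% and 47.6%. The Sc value rested on a median of 55 reads and the WT value on 635, mostly from different runs, and within the 1 run that held both, Δmet was 17.3 points.

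Under +SssI in ESCs the fragments were close, at 68.8% and 72.7% (Δmet -3.97 points, 95% interval ± 7.19), with 9 CpGs lower and 5 higher, against backgrounds of 51.5% and 16.4%. Within the 2 runs that held both, Δmet was -0.951 points. NPs under −SssI had 93.7% at WT and 87.4% at Sc (6.36 points ± 6.9), with 3 CpGs lower and 12 higher (backgrounds 40.3% and 23.9%). Only 7 of the 25 CpGs could be compared within a run that held both, and their Δmet was 12.2 points. NPs under +SssI had 89.4% and 92.8% (-3.42 points ± 5.65), with 13 lower and 2 higher (backgrounds 48.3% and 19.0%), and -3.12 points within 5 runs. Only the interval of ESCs under −SssI, computed as for 1 CpG, did not include 0 among these 4 pools, taking all runs together.

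Under +SssI, the pool of TET TKO ESCs was at 97.5% with the KAISO motif and at 83.5% with the scrambled one, which gives 14.1 points (± 12), with 17 CpGs higher and 0 lower (backgrounds 26.1% and 22.4%). A median of 40 reads lay behind the Sc value, and 9 of its 25 CpGs had the identical value of 77.5%. Within the 3 runs that held both fragments, Δmet was 12.8 points. In the RNA-Seq libraries, which are samples apart from these pools, Zbtb33 averaged 8.09 ± 2.16 RPKM in NPs and 5.13 ± 0.828 in ESCs. It averaged 3.55 ± 0.818 in TET TKO ESCs (SD, n = 3 in each group). Whether Δmet goes with this RNA was not tested.

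**Figure D5:**
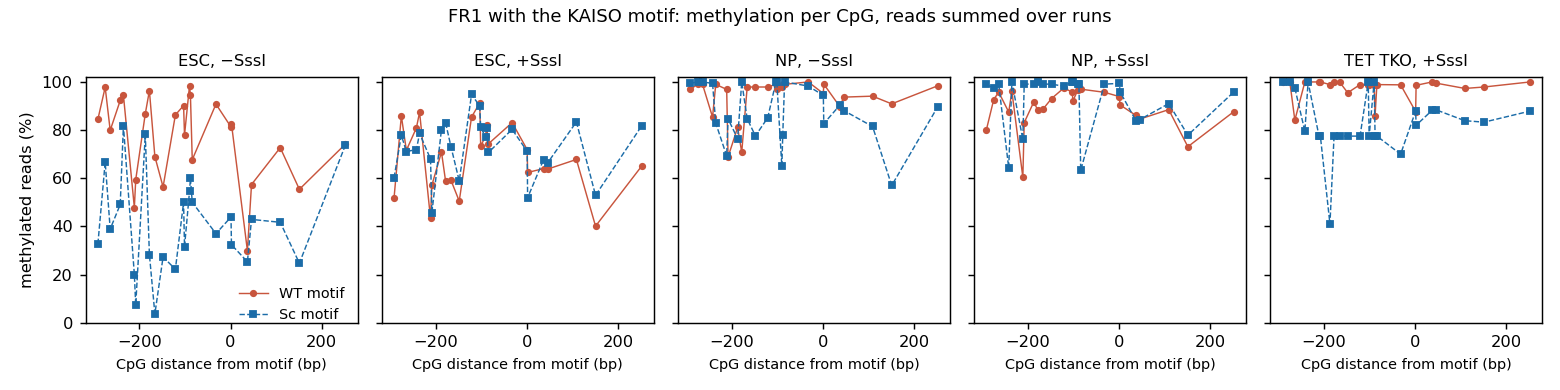
Percentage of methylated reads at each CpG of FR1 by its distance from the motif (bp), with the KAISO motif (WT, red) or its scrambled form (Sc, blue). Each of the 5 pools is summed over its runs, without replicates kept apart. CpGs inside the motif are drawn beside 0. The curves are far apart in ESCs under −SssI (means 77.0% and 40.9%). In NPs the means are close, but single CpGs differ by -29.2 to 34.0 points under −SssI and by -19.0 to 33.7 under +SssI.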

How the data were processed

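The 7 genes were compared in 9 RNA-Seq libraries. The authors deposited raw counts per gene, made by trimming with Trimmomatic 0.38, alignment with STAR 2.6.1b to GRCm38 (Ensembl annotation) and featureCounts without strand, although the library kit marks strand. Totals are in the report. For Hi-TransMet, the authors deposited counts of reads and methylated reads per construct, CpG and run (Bismark 0.20.0). The 2 samples each of ESCs under −SssI and NPs under +SssI share a table and were entered as 1 pool. In each of these pools 1 sample is labelled as Sanger sequencing, and which runs belong to it is not given. Percentages deposited beside them, and the single-line and siRNA samples, were not used. No per-sample column was left without a match (0).

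Counts were tested in edgeR 4.0.16 (R 4.3.3) by the quasi-likelihood F-test with TMM scaling in 2-group fits, on genes with at least 1 RPKM in at least 1 library, with Benjamini-Hochberg adjustment and a limit of 0.05. RPKM was computed from the counts and the gene lengths in the tables. Intervals use the t distribution of the fit. DESeq2 1.42.0 was an alternative, beside library sizes alone, other filters, all 3 groups, a replicate block, thinning and each library left out. On simulated counts the edgeR fit recovered 62% of 2-fold and 86% of 4-fold changes for NPs (15197 genes) and 57% and 86% for TET TKO ESCs (13939 genes). Only 100 genes of each size were changed there, far fewer than were called in the data, so these shares need not hold for the data. CpGs needed at least 10 reads. The CpG test, on 700 simulated CpGs, recovered 85.0% of differences of 30 points and called 0.333% of CpGs without one. The simulated reads were independent, so these rates do not cover reads that share an integration event.

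Members and lists were chosen with earlier results of these data known. Named genes are all 7 members, the Tet genes, of each list those past the stricter limits and up to 4 with the largest change in a comparison, and the 2 most alike per member. Chd4 was named after its values were seen. Promoters came from RefSeq. Python 3.11.15 with pandas 2.3.3, scipy 1.17.1, numpy 2.4.6 and matplotlib 3.10.9 served for the rest.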

Additional observations from a re-analysis of the deposited data

How the results depend on the processing

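In NPs the number of the 7 genes called was 4 to 7 when each library was left out in turn, and 5 with the replicate number as a block. Mbd2, Zbtb4, Zbtb38 and Zfp57 kept the call in each fit, and no gene changed direction. Same-numbered libraries of ESCs and NPs did not deviate together (r from -0.206 to 0.006). For ESCs and TET TKO ESCs r was -0.141, 0.468 and 0.263. Deviations from the mean of 3 libraries depend on each other, so whether the number pairs libraries cannot be decided. In the block, Mbd1 had an adjusted p of 0.069 and Mbd3 of 0.051. In TET TKO ESCs the number of the 7 genes called, 0 in the report, was 2 with library sizes alone, in DESeq2 and with the block, 1 without a filter, with all 3 groups and with thinned counts, and 0 to 2 with a library left out. The log2 fold change of Mbd2 in TET TKO ESCs turned from 0.08 to -0.08 with library sizes alone, to -0.03 in DESeq2 and with thinned counts, and ran from -0.09 to 0.2 with a library left out. That of Mbd3 turned from 0.02 to -0.15, -0.09 and -0.07 under these, to -0.01 with the block, and ran from -0.1 to 0.21 with a library left out. That of Mbd1 ran from -0.15 to 0 with a library left out. None of the 3 was called in any fit. The scalings move all genes alike, and relative to the median of all genes Mbd2 stayed between -0.04 and -0.03 and Mbd3 between -0.11 and -0.1 under TMM, library sizes alone and DESeq2. With the block, Zfp57 had -0.68 (adjusted p = 0.00364) and Zbtb33 -0.55 (0.0356). Among partner lists in TET TKO ESCs, library sizes alone and DESeq2 gave 4 calls each for other MBD-like fold genes, 5 and 6 for MBD1 partners and 1 each for KAISO corepressors. That single call was lower in these fits and with thinned counts (1), but 1 higher and 0 lower without a filter, with all 3 groups and with the block. With a library left out, calls in TET TKO ESCs were 0 to 1 for MBD-like fold genes, 0 to 2 for the KAP1 pathway and 0 to 1 for KAISO corepressors, and in NPs 3 to 7 for MBD-like fold genes and 2 to 5 for MBD1 partners. Without division by length, 4, 3 and 4 of the 7 genes kept their rank in the groups of ESCs, NPs and TET TKO cells, since the genes differ in exonic length. The Δmet of KAISO in ESCs under −SssI was 17.3 points within the shared run, where reads of other runs were left out, and that in NPs under −SssI was 12.2 points (7 CpGs) in place of 6.36. Beyond these, the cause of the changes was not tested. Low counts limit Zbtb4 and the Sc fragments.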
